A study of Mus musculus with 12 samples.

Results

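Complement components and regulators were examined in submandibular glands (SMGs) of wild-type mice and of mice without *Pou2f3*, a gene that tuft cells (TCs) need. The 9 genes, *C1ra*, *C1s1*, *C4b*, *C2*, *Cfb*, *C3*, *Serping1*, *Cfi* and *Cd55*, were chosen by symbol from the 56065 genes of the deposited count table. Of the 9 genes, 8 passed the filter on low counts, as did 17893 genes in all, and *Cfi* did not. Bulk RNA-sequencing covered 12 glands from separate mice aged 8 weeks, with 3 glands for each sex and genotype. Wild types were C57BL/6J and knockouts were C57BL/6J-*Pou2f3*-/- (allele em1Cbwi), all from Jackson Laboratory, and none was treated. The knockout allele is carried in the germline and removes the transcription factor that TCs need, so that a missing TC and a missing factor cannot be told apart.

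The complement system is a cascade of proteases and their substrates that marks microbes and damaged cells for removal. The C1 complex starts the classical pathway, its protease C1s cleaves C4 and C2, and the product cleaves C3, the step on which all routes converge and which factor B amplifies in the alternative pathway. Inhibitors hold the cascade in check on the host's own cells. The liver makes most of the complement in plasma, and fibroblasts, macrophages and epithelia make it locally.

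The members lie on 5 chromosomes of GRCm39, and 2 clusters hold 5 of them. *C1ra* (ENSMUSG00000055172.11, chr6:124489364-124500402, plus strand) and *C1s1* (ENSMUSG00000038521.18, chr6:124507297-124559389, minus strand) are 6894 bases apart. *C4b* (ENSMUSG00000073418.5, chr17:34947354-34962912), *Cfb* (ENSMUSG00000090231.11, chr17:35074852-35081559) and *C2* (ENSMUSG00000024371.15, chr17:35081578-35117241) lie on the minus strand in the major histocompatibility region, with 18 bases between *Cfb* and *C2*. *C3* (ENSMUSG00000024164.16, chr17:57510964-57535155, minus strand) is on the same chromosome outside that cluster. The regulators *Serping1* (ENSMUSG00000023224.13, chr2:84595705-84620873, minus strand), *Cfi* (ENSMUSG00000058952.13, chr3:129629533-129668981, plus strand) and *Cd55* (ENSMUSG00000026399.13, chr1:130366469-130390926, minus strand) each stand alone. All 9 are protein-coding genes.

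Promoter windows of 300 bases, from 250 before to 50 after the annotated start, were at hand from RefSeq on GRCm38.p6 for 4 members, *C1ra*, *C1s1*, *C3* and *Cd55*. The windows of *C3*, which showed the widest range of levels, and of the neighbours *C1ra* and *C1s1*, whose levels stayed closest to each other, are given 5′ to 3′ on the strand of the gene, with matches to the motifs searched in capitals.
*C3* (chr17:57228087-57228386, minus strand): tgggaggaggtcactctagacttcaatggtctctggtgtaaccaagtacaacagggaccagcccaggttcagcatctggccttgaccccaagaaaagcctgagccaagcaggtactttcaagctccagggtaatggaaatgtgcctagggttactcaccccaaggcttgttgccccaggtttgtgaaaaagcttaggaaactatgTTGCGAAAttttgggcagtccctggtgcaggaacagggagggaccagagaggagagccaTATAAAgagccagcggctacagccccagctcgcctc
*C1ra* (chr6:124512371-124512670, plus strand): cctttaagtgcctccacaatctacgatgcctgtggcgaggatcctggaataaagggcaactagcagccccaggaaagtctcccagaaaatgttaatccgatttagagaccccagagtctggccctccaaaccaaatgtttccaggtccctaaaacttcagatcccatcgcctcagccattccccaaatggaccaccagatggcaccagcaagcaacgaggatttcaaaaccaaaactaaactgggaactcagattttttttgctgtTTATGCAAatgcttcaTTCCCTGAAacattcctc
*C1s1* (the first of 2 windows, chr6:124542310-124542609, minus strand): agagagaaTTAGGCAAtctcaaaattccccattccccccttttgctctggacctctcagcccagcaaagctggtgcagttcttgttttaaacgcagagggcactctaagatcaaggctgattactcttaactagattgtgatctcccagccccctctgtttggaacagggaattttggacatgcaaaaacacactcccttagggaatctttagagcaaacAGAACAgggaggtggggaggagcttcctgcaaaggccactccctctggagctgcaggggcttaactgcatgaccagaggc
Both strands were searched, and positions count from the annotated start, with the first transcribed base as 1. The *C3* window held the C/EBP motif TTGCNNAA as TTGCGAAA at −45 and the TATA box TATAAA at 15. The *C1ra* window held the C/EBP motif, read on the other strand, as TTATGCAA at 17 and the GAS motif TTCNNNGAA as TTCCCTGAA at 33. The *C1s1* window held the C/EBP motif, on the other strand, as TTAGGCAA at −242 and the steroid receptor hexamer AGAACA at −30. Of 32851 windows of that length, 10.8% held TTGCNNAA, 13.6% TATAAA, 8.30% TTCNNNGAA and 19.0% AGAACA, so each of these matches is common. The letters of AP-1 (TGANTCA, in 7.81% of windows), the ISRE (3.44%), the full androgen response element (0.475%) and kappa-B (8.46%) were not found in these 3 windows, and the *Cd55* window matched none of the 8 motifs.

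Libraries held 47032175 to 67882207 counts. Levels are given as CPM, the count of a gene scaled to a common library size, with library sizes adjusted by the trimmed mean of M values (TMM), whose factors were lowest in wild-type females (0.625 to 0.759) and highest in males (1.04 to 1.45 in wild type). Where no read was counted, the true count could be as high as 3, which is 0.0399 to 0.0782 CPM. *Pou2f3* had 0 counts in the 3 female knockout glands, 0 to 3 in male knockouts, 0 to 2 in wild-type females and 0 to 10 in wild-type males, so that it could not check the genotype labels at this depth, while *Xist* and *Ddx3y* matched the labelled sex in all 12 libraries. Acinar, duct and convoluted tubule markers were present in every library, and the summed convoluted tubule markers ran from 4369 to 9115 CPM in females and from 51090 to 92310 CPM in males, a known sex difference of this gland. In bulk RNA, fewer cells of a type and less RNA per cell cannot be told apart.

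*C1ra* and *C1s1* encode the paired serine proteases C1r and C1s of the C1 complex. *C1ra* was at 8.93, 9.26 and 12.8 CPM in wild-type females, 7.23, 10.7 and 10.6 CPM in knockout females, 5.81, 6.86 and 6.73 CPM in wild-type males and 7.10, 10.3 and 10.5 CPM in knockout males. All 3 wild-type male values were below the other 9, which overlapped among the 3 remaining groups. *C1s1* was at 18.4, 16.5 and 21.9 CPM in wild-type females, 13.4, 22.2 and 18.9 CPM in knockout females, 12.03, 12.1 and 11.6 CPM in wild-type males and 13.4, 21.8 and 19.7 CPM in knockout males. The wild-type males were again below all others, and in both genes the first library of each knockout group was the lowest of that group.

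*C4b* and *C2* encode the substrates of C1s, whose cleavage products together form the classical C3 convertase. *C4b* was at 12.4, 6.55 and 12.6 CPM in wild-type females, 8.11, 9.55 and 8.77 CPM in knockout females, 4.96, 5.95 and 6.48 CPM in wild-type males and 6.81, 17.6 and 16.5 CPM in knockout males. The highest wild-type male and the lowest wild-type female were close, and the knockout males had the widest spread between libraries, with the first well below the other two. *C2* was at 2.45, 2.71 and 4.74 CPM in wild-type females, 2.46, 3.57 and 2.49 CPM in knockout females, 2.89, 2.50 and 2.61 CPM in wild-type males and 3.03, 3.34 and 3.69 CPM in knockout males. Its groups overlapped, except that the knockout males were above the wild-type males.

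*C3* encodes the central component, whose fragments coat targets and recruit leukocytes, and *Cfb* the factor B protease of the alternative convertase. *C3* was at 51.6, 33.9 and 70.3 CPM in wild-type females, 32.4, 50.7 and 46.5 CPM in knockout females, 15.6, 19.8 and 13.9 CPM in wild-type males and 27.6, 61.5 and 53.9 CPM in knockout males. Every wild-type male gland was below every other gland, and the other 3 groups covered the same range. *Cfb* was at 3.85, 3.43 and 4.43 CPM in wild-type females, 2.62, 4.25 and 2.89 CPM in knockout females, 2.25, 2.17 and 2.18 CPM in wild-type males and 2.39, 5.28 and 4.66 CPM in knockout males. Wild-type males lay closely together below the rest, with the first knockout male library just above them.

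Among the inhibitors, *Serping1* encodes C1 inhibitor, which blocks C1r and C1s, *Cd55* encodes decay-accelerating factor, a membrane protein that dissociates C3 convertases, and *Cfi* encodes factor I, which cleaves C3b and C4b. *Serping1* was at 9.82, 6.68 and 9.70 CPM in wild-type females, 8.37, 10.6 and 8.74 CPM in knockout females, 6.70, 7.32 and 6.48 CPM in wild-type males and 9.03, 15.6 and 11.4 CPM in knockout males. Knockout males were above wild-type males without overlap, and wild-type males overlapped wild-type females. *Cd55* was at 6.11, 3.34 and 4.22 CPM in wild-type females, 4.31, 4.60 and 4.78 CPM in knockout females, 2.07, 2.51 and 2.62 CPM in wild-type males and 3.11, 4.64 and 3.14 CPM in knockout males. It was lowest in the 3 wild-type male glands. *Cfi* had 0 counts in all 6 female libraries, 6, 17 and 4 counts in wild-type males and 1, 3 and 6 counts in knockout males. At this depth it was not detectable in females, and no fold change is given against groups at 0. With no filter on low counts, *Cfi* was tested only through its male counts. Its edgeR adjusted p was then 0.0161 between the wild-type sexes and 0.0547 between the knockout sexes. The limits for 0 counts in wild-type females, 0.0583 to 0.0782 CPM, were above the lowest wild-type male value, 0.05705 CPM. No conclusion is drawn from these tests of *Cfi*.

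**Figure D1:**
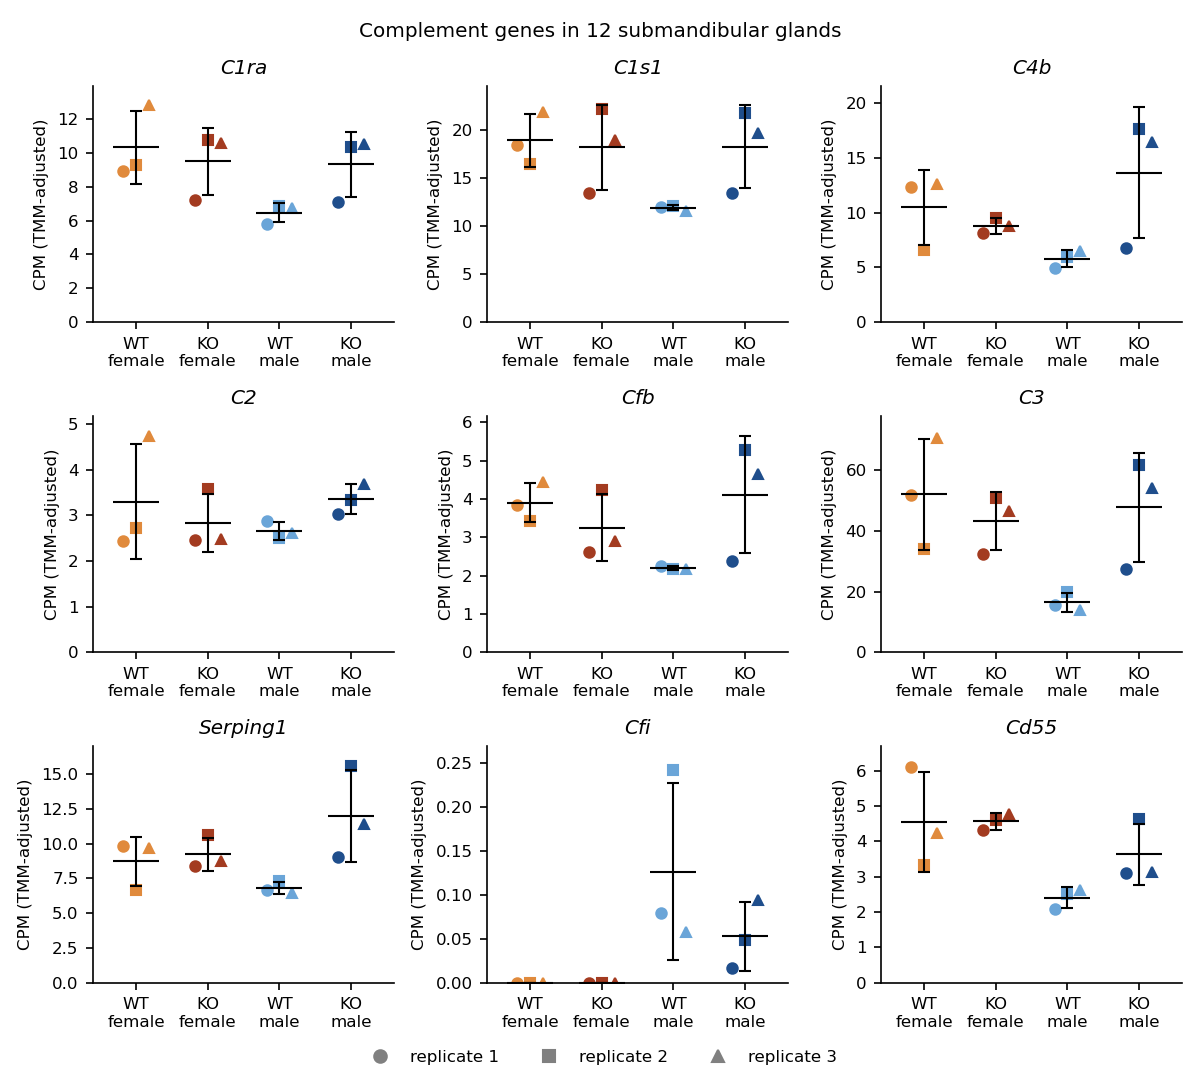
Levels of the 9 complement genes in TMM-adjusted CPM (vertical axes, from 0) by group, with WT for wild type and KO for knockout. Each point is 1 library, with a symbol for its replicate number, and lines and bars are the mean and SD of 3 libraries. The wild-type males sit below all other groups for *C1ra*, *C1s1*, *C4b*, *Cfb*, *C3* and *Cd55*, while *Cfi* is at 0 in females.

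The wild-type males therefore had the lowest mean of the 4 groups for 8 of the 8 members that passed the filter, against 16.7% of all genes tested. For 6 of them, all 3 wild-type male libraries were below the 9 other libraries, a pattern that 1.49% of all genes tested showed, and this count was the same with 3 other ways of scaling the libraries. The members are not independent of each other, since they were read in the same 12 libraries and varied together. The order of the other 3 groups differed between members. Knockout males had the highest mean for *C4b*, *C2*, *Cfb* and *Serping1*, wild-type females for *C1ra*, *C1s1* and *C3*, and knockout females for *Cd55* (4.56 CPM, against 4.56 CPM in wild-type females), and none of these neighbours in the order was separated by the spread between libraries.

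Per kilobase of exon length, a scale on which genes can be compared, *C3* was the most abundant member in 3 groups, with 10.0 ± 3.52 CPM per kilobase in wild-type females, 8.34 ± 1.85 in knockout females and 9.20 ± 3.44 in knockout males (mean ± SD, n = 3). In wild-type males it was at 3.17 ± 0.578 CPM per kilobase, beside 3.44 ± 0.0773 for *C1s1*. In wild-type females *C1s1* followed at 5.45 CPM per kilobase, then *C1ra* at 3.24, *Serping1* at 2.88, *C4b* at 1.73, *Cfb* at 1.14, *Cd55* at 0.771 and *C2* at 0.765. In that group *C3* exceeded *C4b* by 5.82 ± 0.850-fold. The mean of *C1s1* was above that of the inhibitor *Serping1* in all 4 groups. The mean of *C1ra* was above that of *Serping1* only in wild-type females, and was 2.98 against 3.04 CPM per kilobase in knockout females, 2.03 against 2.25 in wild-type males and 2.92 against 3.96 in knockout males.

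Ratios of 2 members within a library do not depend on how the libraries are scaled. The ratio of *C1s1* to *C1ra* per kilobase was 1.57 to 1.94 over all 12 libraries, with group means of 1.70, 1.75, 1.70 and 1.80 in wild-type females, knockout females, wild-type males and knockout males. The ratio of *C3* to *C1s1* was 0.803 to 1.09 in wild-type males and did not overlap with 1.38 to 2.15 in wild-type females, 1.53 to 1.65 in knockout females and 1.37 to 1.89 in knockout males. Similarly, the ratio of *C3* to *Cfb* was 4.21 to 6.00 in wild-type males and at least 6.51 in every library of the other groups. *C3* thus was low in wild-type males relative to these 2 members as well, in each of the 3 glands. The ratio of *C3* to *C4b* did not separate wild-type males from all other groups. It was 2.52 to 3.88 in wild-type males and 3.83 to 4.73 in knockout males. In females it was 4.88 to 6.53 in wild types and 4.67 to 6.21 in knockouts.

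To ask how the sexes differ without the knockout, male and female wild types were compared first. *C3*, the substrate of the C3 convertases, was 3.16-fold lower in male glands, and 5 other members, covering the C1 proteases, *C4b*, *Cfb* and the membrane inhibitor *Cd55*, were lower by 1.58- to 1.90-fold. With edgeR's quasi-likelihood test over all genes and Benjamini-Hochberg adjustment, 6 of 8 members were called at an adjusted p of 0.05, all 6 lower in males, where 36.5% of all genes tested were called and 16.0% were called lower in males. The log2 fold change of *C3* was −1.66 (SE 0.30, edgeR adjusted p = 0.000973) and that of *Cd55* was −0.93 (SE 0.22, edgeR adjusted p = 0.00578). *C1ra* and *C1s1* fell alike, by 0.67 and 0.66 on the log2 scale (edgeR adjusted p = 0.0163 and 0.0167), *C4b* by 0.86 (0.0452) and *Cfb* by 0.83 (0.0273). *Serping1* and *C2* were not called, with log2 fold changes of −0.35 (95% interval −0.77 to 0.06) and −0.30 (−0.82 to 0.21). The median over the 8 members was −0.75, beside 0.06 over all genes tested. Without the third wild-type female library, the highest of its group for 6 of 8 members, 2 members were called (*C3* and *Cd55*). Without the first or without the third wild-type male library, 3 were called. Over all genes, 6523 were called with all libraries and 5007 to 6694 with 1 left out, fewest without the first wild-type male. With 1 library left out in turn, the values ran from −1.13 to −0.72 for *C4b* and −0.93 to −0.74 for *Cfb*. Those of *C1ra* ran from −0.81 to −0.50 and those of *C1s1* from −0.78 to −0.56. The call of *C4b* held in 13 of 24 alternative settings.

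The loss of *Pou2f3* in males was compared next. This comparison uses the same wild-type male libraries as that of the sexes, so these comparisons are not independent. All 8 members had a log2 fold change above 0, as did 42.5% of all genes tested, with *C3* 2.90-fold, *C4b* 2.36-fold, *Cfb* 1.87-fold and *Serping1* 1.76-fold higher in knockout than in wild-type males. The 3 libraries of the groups overlapped for none of the 8, where 6.51% of all genes tested were separated in this direction and 14.5% in either. None of the 8 was called by edgeR after adjustment, in a comparison in which 0.235% of all genes tested were called, and 7 had an unadjusted p under 0.05, as did 11.5% of all genes tested. The log2 fold change was 1.54 for *C3* (95% interval 0.88 to 2.19, edgeR adjusted p = 0.0724), 1.24 for *C4b* (0.57 to 1.90, adjusted p = 0.129), 0.90 for *Cfb* (0.33 to 1.47, adjusted p = 0.196) and 0.82 for *Serping1* (0.40 to 1.23, adjusted p = 0.116). *C1s1*, *Cd55*, *C1ra* and *C2* had values of 0.62, 0.59, 0.53 and 0.33, with edgeR adjusted p from 0.216 to 0.646. The median was 0.72, beside −0.04 over all genes tested.

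This comparison depended on the test, the filter and the libraries. DESeq2 called 4 of the 8, all higher in knockout males, where it called 2.22% of all genes. Without the first knockout male library, which was the lowest of its group for 8 of 8 members, edgeR called 5, *C3*, *C4b*, *Cfb*, *C1s1* and *Serping1*, and 3.42% of all genes, 635 in place of 42. With no filter on low counts edgeR called 5 members and 1.26% of all genes, and with at least 10 counts in every library 1 member and 0.402%. Without the 3 libraries richest in adipocyte markers, a setting described with the markers, the value of *C4b* was 0.24 in place of 1.24 and that of *Cfb* 0.12 in place of 0.90. That setting left the first library as the only knockout male. It was the lowest of its group for 8 of 8 members, so these values had to fall.

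In females, the knockout and wild-type libraries overlapped for all 8 members, while 49.3% of all genes tested were separated. The log2 fold changes of knockout against wild type ran from −0.26 (*C3*, 43.2 against 51.9 CPM) to 0.08 (*Serping1*, 9.23 against 8.73 CPM). Neither edgeR nor DESeq2 called any of the 8, and 0 had an unadjusted p under 0.05, in a comparison in which edgeR called 36.9% of all genes tested and 46.3% had such a p. The 95% intervals still allowed sizeable changes, from −0.90 to 0.38 for *C3*, −0.92 to 0.41 for *C4b* and −0.83 to 0.31 for *Cfb*, and were narrower for *C1s1* (−0.47 to 0.36) and *Serping1* (−0.34 to 0.50). The member closest to no change was *Cd55*, at 4.56 CPM in either group.

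Whether the effect of the knockout differed between the sexes was tested directly, as the female minus the male log2 fold change. The difference was below 0 for all 8 members, as for 48.5% of all genes tested, and was called by edgeR for 3, *C3*, *C4b* and *Cfb*. Over all genes tested, 25.7% were called and 12.4% were called below 0. The difference was −1.80 for *C3* (SE 0.42, edgeR adjusted p = 0.0110), −1.49 for *C4b* (SE 0.43, adjusted p = 0.0267) and −1.16 for *Cfb* (SE 0.37, adjusted p = 0.0376). The other 5 ranged from −0.73 (*Serping1*) to −0.54 (*C2*), with edgeR adjusted p from 0.0632 to 0.250. The call of *C3* held in 21 of 23 alternative settings, that of *C4b* in 15 and that of *Cfb* in 12. Both settings that ended the call of *C3*, chosen after seeing the data, left out libraries rich in markers of other cell types. Each of them left 1 group with 1 library, so only the value of *C3* is given. It was −0.77 without the 3 libraries richest in adipocyte markers and −1.29 without 2 wild-type females rich in macrophage or adipocyte markers. Leaving out 1 library gave 1 to 6 called members. The count was 1 without the third wild-type female, the first knockout female or the first wild-type male. It was also 1 without the second or the third knockout male. In the settings with 1 called member, 12.9% to 18.9% of all genes were called, in place of 25.7%. The count was 5 without the second knockout female and 6 without the first knockout male, where 27.9% and 25.6% of all genes were called. Over all fits with 1 library left out, the difference ran from −1.83 to −1.27 for *C4b* and from −1.49 to −0.95 for *Cfb*.

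Between knockout males and females, which share no library with the wild-type comparison of the sexes, none of the 8 members was called by edgeR or DESeq2, while edgeR called 43.5% of all genes tested. For 0 of the 8 was the unadjusted p under 0.05, against 51.4% of all genes tested. The log2 fold changes of male against female ran from −0.33 (*Cd55*) to 0.63 (*C4b*, 13.6 ± 5.95 against 8.81 ± 0.721 CPM, 95% interval −0.03 to 1.29). *C3* was at 47.7 ± 17.8 CPM in knockout males and 43.2 ± 9.61 CPM in knockout females, a log2 fold change of 0.14 (95% interval −0.50 to 0.78), beside −1.66 in wild type. Without the first knockout male library, 3 members, *C4b*, *Cfb* and *Serping1*, were called higher in males, where 39.1% of all genes were called in that setting.

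**Figure D2:**
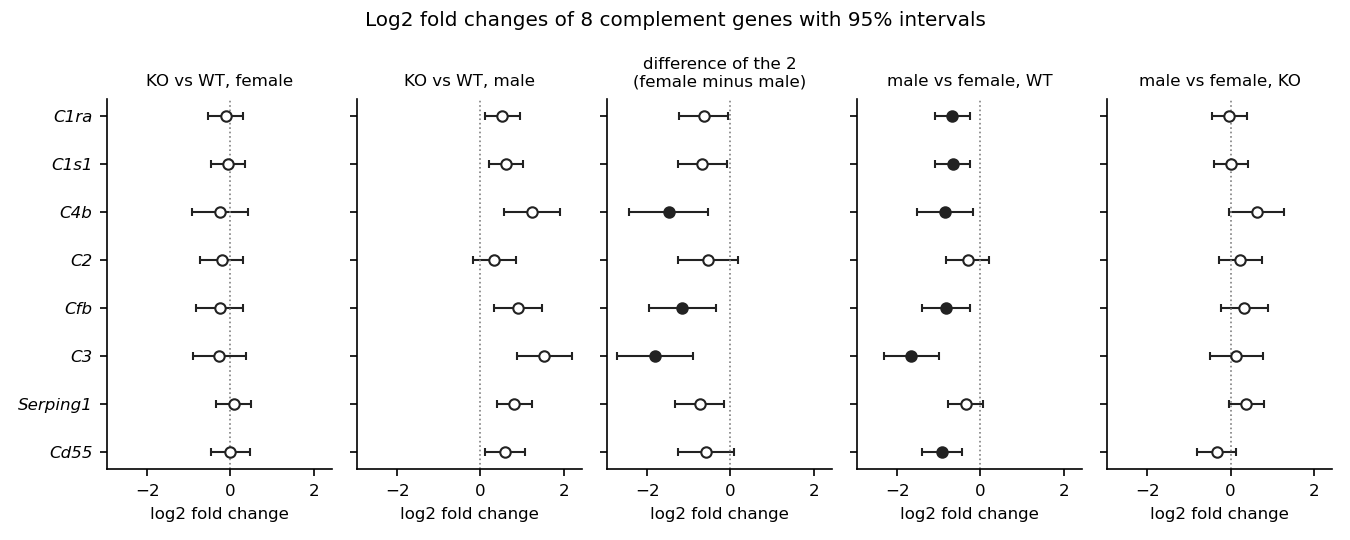
Log2 fold changes (horizontal axes) of the 8 members tested, in 5 panels: the female and the male knockout against their wild types, the difference of these effects, and male against female in wild type and in knockout. Points are edgeR estimates with 95% intervals, filled where the adjusted p was under 0.05. All 8 points are right of 0 for the male knockout and left of 0 for wild-type males against females, with filled points for 6 members there and 3 in the middle panel.

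Markers of other cell types moved with the members in part of the libraries. The 5 adipocyte markers, among them *Adipoq*, summed to 3.25, 5.76 and 41.5 CPM in wild-type females, 2.98, 4.88 and 2.40 CPM in knockout females, 1.42 to 1.53 CPM in wild-type males and 2.66, 32.0 and 15.5 CPM in knockout males. The libraries with high sums, the third wild-type female and the second and the third knockout male, were also those with the highest *C3* in their groups, while the wild-type males were lowest in both. The 7 macrophage markers summed to 64.0 to 76.3 CPM in wild-type males and to 90.5, 172 and 162 CPM in knockout males. In knockout females they summed to 61.7, 105 and 81.7 CPM, which overlapped the wild-type males, whereas *C3* did not overlap between these groups. In wild-type females the first library stood apart, at 226 CPM against 67.4 and 100.0 CPM. The 7 fibroblast markers summed to 410 to 452 CPM in wild-type males and 504, 904 and 713 CPM in knockout males, with no overlap. They summed to 329 to 475 CPM in wild-type females, so that the fibroblast sums of the wild-type sexes overlapped where *C3* did not. Knockout females, at 356, 537 and 410 CPM, overlapped the wild-type males too. Other lists separated the wild-type sexes without overlap. Acinar markers summed to 48910 to 59880 CPM in wild-type females and 13350 to 18880 CPM in wild-type males, with 6 of 8 called lower in males, and endothelial markers to 29.3 to 34.7 and 16.9 to 19.9 CPM, with 4 of 5 called lower. Tuft cell markers summed to 15.5 to 19.7 and 7.80 to 9.19 CPM, and were no lower in the knockouts, at 18.8 to 22.1 CPM in females and 7.97 to 9.58 CPM in males. Nearly all of these sums was *Dclk1*, 1 of the 2 tested TC markers was called higher in knockout females, and *Gnat3* and *Il25* were at 0 in all 12 libraries, so that the markers did not show a loss of TCs at this depth. Acinar and endothelial markers were lower in males in the knockouts too, with 5 of 8 and 4 of 5 called, a comparison in which no member was called. Duct, convoluted tubule and myoepithelial sums were higher in wild-type males, the last at 352 to 427 CPM against 128 to 172 CPM. The B and plasma cell markers, mostly *Jchain*, summed to 0.479 to 0.639 CPM in wild-type males and 1.26 to 2.73 CPM in knockout males, without overlap, and to 0.130 to 3.07 CPM in wild-type females. T cell markers were at 0.889 CPM or less and neutrophil markers at 0.0942 CPM or less in every library. The 4 hepatocyte markers summed to 0.160 to 1.46 CPM in the 6 female libraries and 2.78 to 5.255 CPM in the 6 male libraries. Nearly all of the male sum was *Ttr*, which was called higher in males in both genotypes, while *Alb*, the defining hepatocyte marker, was at 0 in the 6 wild-type libraries and at 0.345 CPM or less in the knockouts. The part of these cell types in the differences of the members was not tested.

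Without the 3 libraries richest in adipocyte markers, a setting chosen after seeing the data, 5 members were called lower in wild-type males than in females, where 25.3% of all genes were called, and the log2 fold change of *C3* was −1.39. The male knockout values then rested on 1 knockout library, the first, which was the lowest of its group for 8 of 8 members. They were 0.75 for *C3*, 0.41 for *Serping1*, 0.24 for *C4b* and 0.12 for *Cfb*. None of the differences between the sexes in the knockout effect was called in that setting (−0.77 for *C3*), in which 0 of all genes tested were called.

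**Figure D3:**
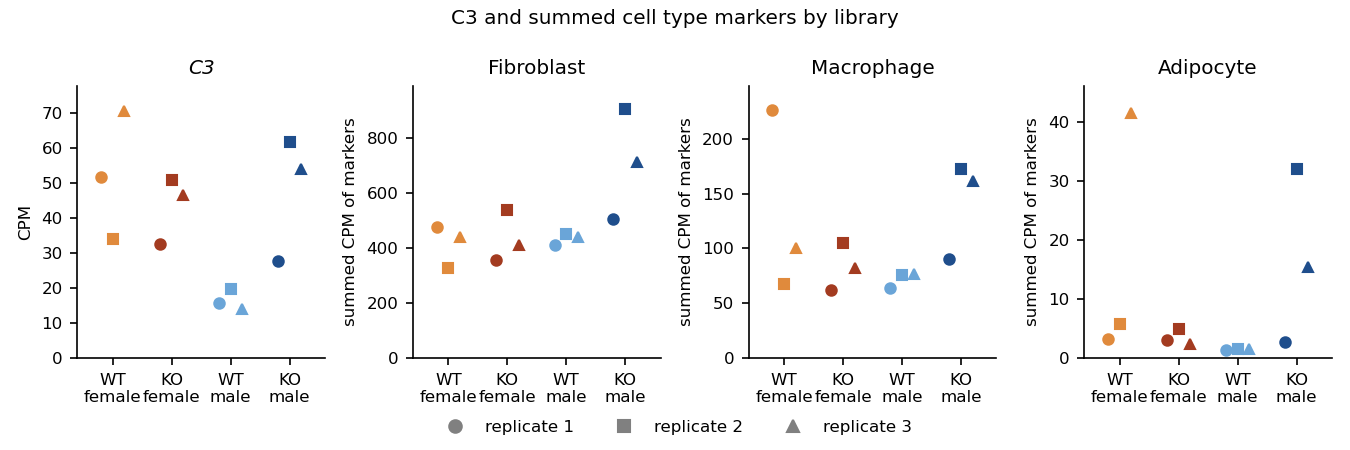
*C3* (left, CPM) beside the summed CPM of fibroblast, macrophage and adipocyte markers (vertical axes, from 0) in the 12 libraries by group, with a symbol for the replicate number. The second and the third knockout male are high in all 4 panels, the third wild-type female is high in *C3* and adipocyte markers, and the wild-type males are the lowest group in *C3* and adipocyte markers.

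The wider complement system was read from lists ordered by role, with 49 genes besides the members, of which 27 passed the filter. In wild types, 14 of these 27 were called between the sexes, 9 lower and 5 higher in males, where 36.5% of all genes tested were called and 16.0% were called lower. Those lower in males included the 3 chains of C1q, the part of C1 that recognises targets, with log2 fold changes of −0.77 (*C1qa*), −0.99 (*C1qb*) and −0.84 (*C1qc*), and the C1r-like gene *C1rl* (−0.997). With *C1ra* and *C1s1*, 6 of 7 tested genes of the C1 complex were therefore called lower in males, and the seventh, *C1s2*, was called higher (1.14). Without the third wild-type female library, *C1ra* (−0.50), *C1s1* (−0.56), *C1qa* (−0.78) and *C1qc* (−0.87) were not called, which left *C1qb* and *C1rl*. The values of *C1qa* and *C1qc* were then no nearer to 0 than with all libraries. Receptors on leukocytes fell too, *C3ar1* by 1.84, *Itgam* by 2.42 and *Itgb2* by 1.96 on the log2 scale, but the first wild-type female library, high in macrophage markers, was at 35.2 CPM for *Itgam* beside 3.23 and 3.34 CPM in the other two. Without that library, 10 of the 27 were called, and *C3ar1* (−0.62), *Itgam* (−0.36), *Itgb2* (−0.79), *C1qa* (−0.57) and *C1qc* (−0.55) were no longer called. Without the third wild-type female library 11 were called, with *C1qa*, *C1qc* and *Cfd* (−3.42) lost, and without the first wild-type male library 10. Over all genes, 6523 were called with all libraries and 5007 without the first wild-type male library. Besides *C1s2*, the genes higher in males were *Cd59a* (2.03) and *Cd59b* (1.34), which block the membrane attack complex, the chaperone *Clu* (0.99) and the terminal component *C7* (3.07). *C7* had 8, 1 and 0 counts in wild-type females and 36 to 46 in wild-type males, and its value was 5.27 without the first wild-type female library. The regulator *Vtn* was lower in males (−1.55).

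*Cfd*, which encodes factor D, the protease that activates factor B and a product of adipocytes, varied most. It was at 0.797, 5.38 and 41.7 CPM in wild-type females, 0.659, 2.10 and 0.193 CPM in knockout females, 0.239, 0.213 and 0.414 CPM in wild-type males and 1.29, 29.9 and 22.3 CPM in knockout males. The high values fell in the 3 libraries with high adipocyte markers. EdgeR called *Cfd* lower in knockout than in wild-type females (−3.96, SE 1.29, adjusted p = 0.0293) although these groups overlapped. Without the third wild-type female library the value was −1.63 and was not called (edgeR adjusted p = 0.305). The call was also lost without the first or the third knockout female library, but there the value stayed at −3.80 and −3.57.

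In knockout females, 8 of the 27 genes were called against wild type, 3 higher and 5 lower, where 36.9% of all genes tested were called. *C1s2* (1.50), *C4a* (1.65) and the membrane cofactor *Cd46* (0.82) were called higher, and *C1qa* (−0.77), *C1qb* (−0.76), *Cfd*, *Itgam* (−1.997) and *Itgb2* (−1.42) were called lower. Of the 12 libraries left out in turn, 4 ended the call of *C4a*, with values of 1.24 to 1.68. For *Cd46* 1 did so (0.70), and for *C1s2* 0 did. The groups overlapped for all 5 genes called lower. *Itgb2* was at 18.6 CPM in the first wild-type female library and at 3.54 and 4.09 CPM in the other two, beside 2.50 to 3.96 CPM in knockout females, and *Itgam*, given above for wild types, was at 2.80 to 4.01 CPM in knockout females. Without that library, 5 of the 27 were called, where 38.4% of all genes were called. *Itgam* (0.03), *Itgb2* (−0.28), *C1qa* (−0.60) and *C1qb* (−0.51) were not among these 5. The count was 1 without the third and 2 without the first knockout female library, where 28.3% and 27.9% of all genes were called. In knockout males edgeR called 0 of the 27, 8 had an unadjusted p under 0.05, and DESeq2 called 2, beside 0.235%, 11.5% and 2.22% of all genes tested. Without the first knockout male library edgeR called 5, beside 3.42% of all genes. The 3 C1q genes were at log2 fold changes of 0.70, 0.73 and 0.76 there, near those of *C1s1* and *C1ra*. The effect of the knockout differed between the sexes for 7 of the 27, of which 2, *C1s2* and *Cd46*, were above 0, and for 25.7% of all genes tested. This count ran from 3 to 10 with 1 library left out. It was lowest without the first wild-type male library, where 12.9% of all genes were called. Between knockout males and females, 9 were called, where 43.5% of all genes tested were called. Of the 9, 5 were higher in males (*C1qa*, *Cfd*, *C7*, *Clu* and *Cd59a*) and 4 lower (*C1rl*, *C4a*, *Vtn* and *Cd46*). With 1 library left out the count ran from 5 to 11, while calls over all genes ran from 6193 to 8255. The sex differences of *Cd59a*, *Clu*, *C1rl* and *Vtn* were thus called in both genotypes in the same direction. The call of *C1rl* in knockouts was lost for 3 of the 12 libraries left out in turn, with values of −0.71 to −0.64. *C7* was called in both too, but it had 8 counts or fewer in every female library. It passed the filter only through males, so its 2 calls are not read as agreement. Those of *C1qa* (−0.77 in wild type and 0.70 in knockout) and *Cfd* (−5.77 and 4.13) were called in both genotypes in opposite directions, but single libraries ended these calls. Of the 12 libraries left out in turn, 4 ended the call of *C1qa* in wild types, with values of −0.78 to −0.57. In knockouts 5 did so (0.56 to 0.71). For *Cfd* 1 did so in wild types (the third wild-type female, −3.42) and 3 in knockouts (3.54 to 3.98). The opposite directions thus stayed where these calls were lost. No member that passed the filter was called in both.

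**Figure D4:**
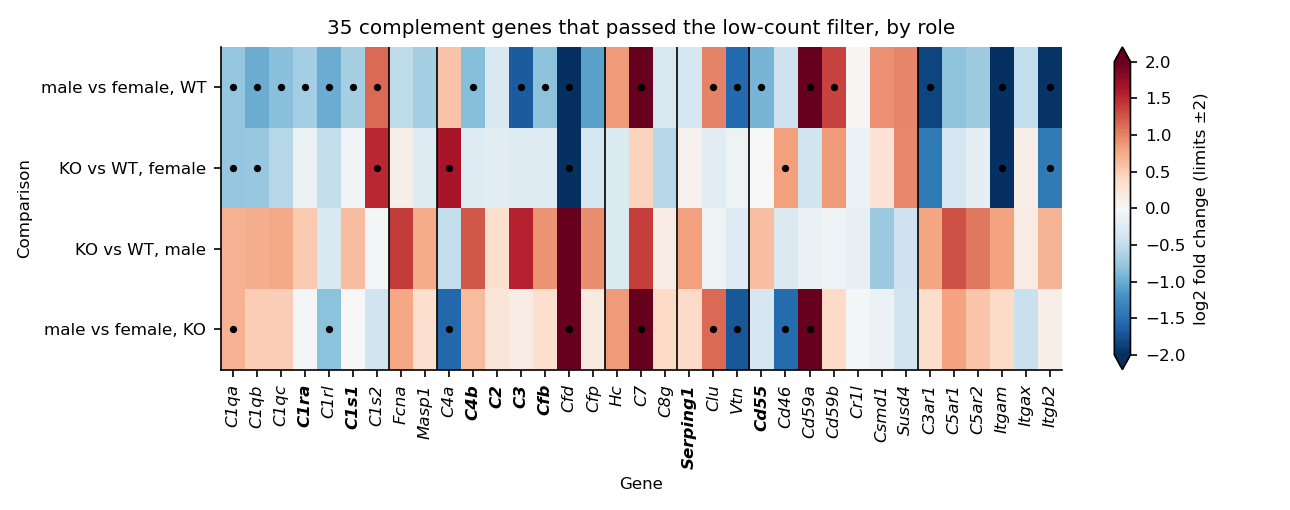
Log2 fold changes (colour, limits ±2) of the 35 complement genes that passed the filter, ordered by role between vertical lines from the C1 complex on the left to receptors on the right, with members in bold. Rows are the 4 comparisons and dots mark genes called by edgeR. The row of wild-type males against females holds 6 dots on members, and the row of the male knockout holds none.

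Some members have near-identical copies, between which reads cannot be assigned with certainty. Of the distinct 31-base words of its transcripts, *Cfb* shared 60.5% and *C2* 35.3% with other genes, nearly all with the readthrough gene *Gm20547*, which had 0 to 13 counts. *C1ra* shared 54.0%, mostly with *C1rb* (0 to 6 counts), *C4b* 42.0% with *C4a* (4 to 36 counts), *C1s1* 29.8% with *C1s2* (13 to 99 counts) and *Cd55* 10.0%, mostly with *Cd55b* (0 counts). *C3*, *Serping1* and *Cfi* shared none. The copies were assigned few counts beside the members, but these counts come from the same uncertain split of reads. Of 100-base windows of the transcripts, 68.9% for *Cfb* and 49.5% for *C2* held only words shared with other genes. *C4a* and *C1s2* were called higher in knockout females, where *C4b* and *C1s1* were not called. The call of *C4a* was lost for 4 of the 12 libraries left out in turn. The values of these genes are uncertain to the extent that reads were split between copies.

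Genes with the most similar pattern to each member were found among all genes tested, by the root mean square difference of log2 CPM over the 12 libraries after centring, as a description. *C1ra* and *C1s1* were each other's nearest gene, at 0.11. *C1s1* was next followed by *Gsn* (0.12) and *Fap* (0.13), and *C1ra* by *S1pr1* (0.14) and *Dhdh* (0.15). The nearest to *C3* was *Cd226* at 0.21, then *Igf1* (0.26) and *Efemp1* (0.27), and no member was among them. *C4b* was closest to *Tlr7* (0.18), with *Serpina3g* (0.22) also among its 3 nearest, and *C2* to the class II gene *H2-Aa* (0.18), *Aoc3* (0.19) and *Rab38* (0.19). *Serping1* was closest to *Col5a2*, *Mmp2* and *Cavin3* (each 0.13), *Cfb* to *Spry4* (0.15), *Stom* (0.16) and *C1s1* (0.17), and *Cd55* to *Rnf180* (0.16), *Steap3* (0.17) and *Hspa12b* (0.18). Among the members the pair farthest apart was *C3* and *C2*, at 0.64, and the SD of log2 CPM over the 12 libraries was 0.78 for *C3* and 0.30 for *C2*.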

How the data were processed

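Bulk RNA-sequencing of 12 SMGs was analysed. The authors removed ribosomal RNA from total RNA (100 ng), made stranded libraries and sequenced paired reads of 100 bases, although the labels describe the molecule as polyadenylated. The labels say that RNA came from cell pellets, whereas the methods of the study describe snap-frozen gland tissue, and cell type marker sums could differ if the tissue was dissociated. The authors quantified reads with Salmon 1.10.1 against Gencode M35 (GRCm39) and deposited estimated counts per gene, of which 78.7% were whole numbers. They also deposited a normalized signal, the counts divided by a factor per gene and library, which was used here only as an alternative scaling.

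Estimated counts were rounded and fitted in R 4.3.3 with limma 3.58.1 and edgeR 4.0.16 (TMM, filterByExpr, 1 mean per group over 12 libraries, quasi-likelihood test, Benjamini-Hochberg adjustment over all 17893 genes tested within each of 5 contrasts, threshold 0.05). SEs were derived from the log2 fold change and the F statistic, and intervals cover 95%. The fit was tested on simulated data. Summaries used numpy 2.4.6 and pandas 2.3.3 in Python 3.11.15, and plots matplotlib 3.10.9. Symbols, positions and exon lengths come from Gencode M39, which held 55563 of the 56065 identifiers. The members and lists were chosen with earlier results of these data known. Genes are named if they are members, if they are complement genes called in a contrast or copies of a member, or if they are among the 3 genes nearest in pattern to a member, and *Pou2f3*, *Xist* and *Ddx3y* serve as checks of the labels. Single cell type markers and the readthrough gene were named after their values were seen, and 1 gene of the role lists and 1 of the nearest genes are not reported here. Replicates are separate mice per the labels, and same-numbered libraries were not treated as pairs. Alternatives were RLE and upper-quartile scaling, leaving out the 20 most abundant genes, the authors' factors, protein-coding library sizes, 2 other filters, fits within the groups compared, DESeq2 1.42.0, a replicate block and each library left out in turn. A pair of settings without libraries rich in adipocyte or macrophage markers was added after seeing the data. Intervals of fold changes cover the spread between mice, and limits of detection cover counting error only.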

Additional observations from a re-analysis of the deposited data

Results flagged for a closer look

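For 10 of 35 complement genes tested, where 25.7% of all genes tested were called, the effect of the knockout differed between the sexes in edgeR's test of the difference itself, given as the female minus the male log2 fold change, a share near that of all genes. Among the members these were *C3* (−1.80), *C4b* (−1.49) and *Cfb* (−1.16). Among the other genes of the pathway, the C1q chains *C1qa* (−1.47), *C1qb* (−1.49) and *C1qc* (−1.34) and the receptor *C5ar2* (−1.26) were also below 0, while *C1s2* (1.54) and *Cd46* (1.12) were above 0. In the same difference 3 of 7 macrophage markers were called below 0 (median −1.57), as were 5 of 5 adipocyte markers. The part of macrophages in these values was not tested. *Cfd* had the difference farthest from 0, −9.90 (−7.62 without the third wild-type female and −11.25 without the second knockout female library), and its high values fell in the 3 libraries with high adipocyte markers. Of the 12 libraries left out in turn, 6 ended the call of *C5ar2*, 5 that of *C1s2*, 5 that of *C1qc* and 4 that of *Cd46*. Where the calls were lost, the values were −1.375 to −0.99 for *C5ar2* and 1.26 to 1.54 for *C1s2*. They were −1.365 to −1.12 for *C1qc* and 0.95 to 1.02 for *Cd46*. The calls of *C1qa*, *C1qb* and *Cfd* held in all 12. The part of the libraries with high adipocyte markers in these differences was not tested gene by gene beyond the members.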

How the results depend on the processing

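No member changed its direction together with its call. Among the other complement genes, *Itgam* did so in females without the first wild-type female library (0.03 in place of −1.997). For the male knockout, the 0 called members became 5 with no filter on low counts, 1 with at least 10 counts in every library and 4 with DESeq2, and ran from 0 to 5 with 1 library left out. For the difference between the sexes, the 3 called members became 5 with no filter, 5 with DESeq2 and 0 in each of the settings without libraries rich in adipocyte or macrophage markers, and ran from 1 to 6 with 1 library left out. For wild-type males against females, the 6 called members became 7 with no filter, the added call being *Cfi*, higher in males, and 0 when wild-type females were reduced to the second library, the lowest for 6 of 8 members, and ran from 2 to 6 with 1 library left out. Between the knockout sexes, 0 became 1 with no filter (*C4b*), and ran from 0 to 3 with 1 library left out. Without those 2 wild-type females *Cfi* was tested as well. At 0 counts in all female libraries, *Cfi* was tested only through males, so no conclusion is drawn from its tests in that setting or with no filter. In females the count was 0 throughout. Calls over all genes ran from 6 to 635 around 42 for the male knockout, from 0 to 5562 around 4606 for the difference between the sexes, from 3627 to 7071 around 6611 for the female knockout, from 3570 to 6981 around 6523 and from 4177 to 8255 around 7790 for the sex in wild types and in knockouts. Where a setting leaves a group with 1 library, that library is assumed to vary like the others. Under 5 other scalings all 8 members were above 0 for the male knockout and below 0 for the wild-type sexes and the difference, while 5 to 8 of 8 were below 0 for the female knockout and 4 to 7 above 0 for the knockout sexes. Upper-quartile scaling moved the median of all genes by 0.10 for the female knockout and −0.16 for the knockout sexes.

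With the replicate block, 0, 0, 4, 6 and 0 members were called in the female knockout, the male knockout, the difference, and the sexes in wild type and in knockout, the added call being *C1ra* in the difference. The labels do not say that a number pairs mice, and the deviations of same-numbered libraries correlated at −0.11 to 0.05 in females, −0.14 to 0.09 in males, −0.06 to 0.27 in wild types and −0.04 to 0.09 in knockouts. Between groups that were not compared, they correlated at 0.13 to 0.17 for knockout females and wild-type males and at −0.12 to 0.02 for knockout males and wild-type females. *Cfi*, at 17 counts or fewer, could be tested only with no filter or in the 2 settings added after seeing the data, and its edgeR adjusted p for the wild-type sexes was 0.0161, 0.0801 and 0.172 there.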
